A study of Rattus norvegicus with 26 samples.

Results

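Hsd17b2, Hsd11b1 and Srd5a1 encode enzymes that set how much active steroid hormone a liver cell holds, and they were followed across 26 arrays of rat hepatocytes exposed to TCDD or PCB 126. The genes were chosen by their dose slopes and high-dose values on these same arrays, Hsd17b2 for its increase, so their dose responses are described and not tested. Every probe set that the platform's annotation assigns to 1 of the 3 genes alone was taken. That gave 1 probe set for Hsd17b2 and 1 for Hsd11b1, or 2 of the 4736 genes with a probe set of their own. No probe set is listed for Srd5a1, which was therefore not analysed here. Both probe sets passed the filter on dim signals, which asked that the second-highest of the 26 values exceed the median of all values on the arrays, 3.71 log2.

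The cells were primary hepatocytes of female Sprague Dawley rats of the stock Crl:CD(SD)IGS BR, cultured for 48 h in 0.5% DMSO with TCDD, with PCB 126 or with nothing added. TCDD (a chlorinated dioxin) was given at 7 doses from 0.01 pM to 316 nM, which are -14 and -6.5 as log10 M, and PCB 126 (a coplanar chlorinated biphenyl) at 7 doses from 1 pM to 10000 nM, which are -12 and -5. Cells of 3 animals were mixed in each of 2 pools, and a pool contributed at most 1 array to a dose: pool 2 had 15 arrays, with all doses and 1 vehicle culture, and pool 1 had 11, with 5 doses of each chemical and 1 vehicle culture. Nothing in the labels separates the animals within a pool, and p-values measure the spread between arrays, which may be technical. All values are deposited log2 expression values made with GCRMA, on which 1 unit is a doubling of signal. The level of one gene is not set against that of another.

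Both chemicals are ligands of the aryl hydrocarbon receptor (AhR), a transcription factor that binds DNA with its partner Arnt and switches on genes such as Cyp1a1. The hydroxysteroid dehydrogenases interconvert active and weak forms of steroid hormones. Hsd17b2 works as an oxidase: it turns estradiol into estrone and testosterone into androstenedione, and so lowers the activity of both sex hormones in liver, gut and placenta. Hsd11b1 works in hepatocytes mainly as a reductase that regenerates active glucocorticoid (corticosterone in rats) from its inert keto form.

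The cells carried hepatocyte transcripts on every array: 11 of 12 hepatocyte markers were kept, with mean log2 values from 7.11 to 14.21, the highest for albumin. The pools differed on most of the array, with array medians from 3.48 to 3.78 in pool 2 and from 3.72 to 3.99 in pool 1, and models therefore carried a term for the pool. The 1 pM PCB 126 array of pool 2 stood apart from its neighbours. Its Cyp1a1 value was 10.80, against 7.91 at 10 pM in the same pool and 3.21 at 1 pM in pool 1. Values without this array are given below for the counts of steroid genes and for likeness to Hsd17b2. Other results include it unless an array is said to be left out.

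Hsd17b2 was low in vehicle cultures and, on most arrays, at picomolar doses of either chemical, and high at 10 nM and above. With TCDD in pool 2 its log2 values were 3.36 at 0.01 pM, 3.63 at 1 pM, 4.31 at 10 pM, 6.21 at 100 pM, 6.83 at 1 nM, 6.68 at 10 nM and 5.68 at 316 nM, against 3.4998 with vehicle. In pool 1 they were 3.43 at 0.01 pM, 3.53 at 1 pM, 3.47 at 100 pM, 4.91 at 10 nM and 4.36 at 316 nM, against 3.39 with vehicle. The vehicle value was thus nearly the same in both pools, while the highest TCDD value stood 3.33 log2 above it in pool 2 and 1.52 log2 above it in pool 1. Both vehicle values were below the median of all values on the arrays, 3.71 log2, so differences from them are given on the log2 scale and not as folds. At 100 pM the pools parted most: the array of pool 2 was 2.71 log2 above its vehicle and that of pool 1 was 0.07 log2 above. In both pools the array at 316 nM was lower than that at 10 nM.

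With PCB 126 in pool 2 the Hsd17b2 values were 4.50 at 1 pM, 3.33 at 10 pM, 4.13 at 100 pM, 5.71 at 1 nM, 6.80 at 10 nM, 7.08 at 1000 nM and 6.31 at 10000 nM. In pool 1 they were 3.37 at 1 pM, 3.45 at 100 pM, 4.69 at 10 nM, 4.69 at 1000 nM and 5.32 at 10000 nM. The highest value was 3.58 log2 above the pool's own vehicle in pool 2 and 1.93 log2 above it in pool 1. The value at 1 pM in pool 2, 1.00 log2 above vehicle, comes from the array that stood apart, and the next higher dose gave a value below vehicle. From 10 nM on every array of either chemical lay above both vehicle arrays.

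**Figure D1:**
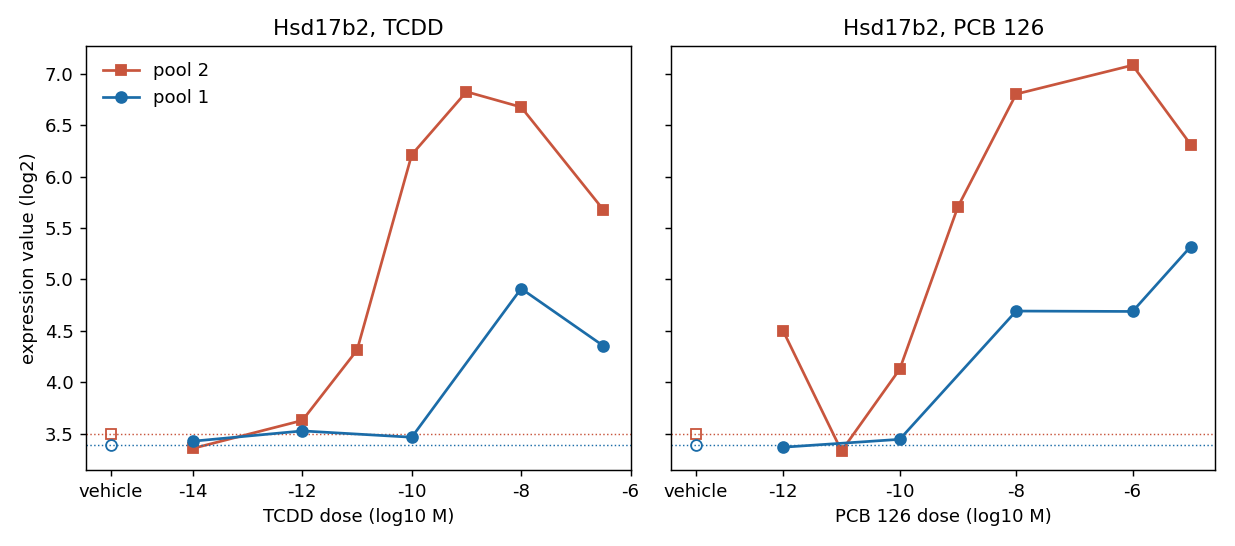
Log2 expression value of Hsd17b2 on each array against the log10 molar dose of TCDD (left) and PCB 126 (right). Squares are pool 2 and circles pool 1, open symbols at the far left and dotted lines mark each pool's vehicle array, and every symbol is 1 array. Pool 2 reached 6.83 with TCDD and 7.08 with PCB 126, and pool 1 reached 4.91 and 5.32.

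Fitted over the 12 arrays of each chemical, with pool as a term, Hsd17b2 gained 0.32 ± 0.09 log2 per decade of TCDD dose and 0.38 ± 0.09 log2 per decade of PCB 126 dose (± is the standard error of the limma model here and below). These slopes belong to the contrasts in which the gene was noticed, and no p is given. The slope on TCDD dose was 0.46 ± 0.11 in pool 2 and 0.17 ± 0.12 in pool 1, and that on PCB 126 dose was 0.46 ± 0.11 in pool 2 and 0.28 ± 0.12 in pool 1. A straight line understates the rise, which took place over a few decades and turned down at the top TCDD dose. Without the 316 nM arrays the TCDD slope was 0.47 ± 0.10.

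The mean of the 2 highest doses stood 1.96 ± 0.51 log2 above vehicle for TCDD and 2.40 ± 0.51 log2 for PCB 126. Each of these rests on 1 vehicle array per pool. Leaving out the vehicle array of pool 1 gave 2.56 and 3.01 log2, and leaving out that of pool 2 gave 1.35 and 1.80 log2. The vehicle values themselves were close, at 3.4998 in pool 2 and 3.39 in pool 1. With 1 of them left out, the vehicle level is adjusted by a pool term fitted over the other groups. These values therefore do not measure a spread between vehicle arrays.

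The 15 conditions, ordered by their level after adjustment to the mean of the pools, ran from 6.22 log2 with 1 nM TCDD to 2.73 log2 with 10 pM PCB 126, a span of 3.49 log2. Both ends are conditions with 1 array, of pool 2, shifted down by a pool term fitted over conditions with both pools. The 10 pM PCB 126 array itself read 3.33 log2, against 3.4998 for the vehicle of pool 2. The vehicle of pool 1 was at 3.39, nearly the same, so the low end and the span depend on that shift. None of the 14 gaps between neighbours in this order exceeded 2 standard errors. The largest was 0.91 log2, between 100 pM TCDD and 1 pM PCB 126, or 1.54 standard errors.

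The dose at which Hsd17b2 crossed the midpoint of its increase was set beside that of 3 AhR targets. With TCDD Hsd17b2 crossed after Cyp1a1 on both scales, while its order with Cyp1b1 and Aldh3a1 depended on the scale. The midpoint lay between the vehicle value and the mean of the 2 highest doses of a pool, and the dose was read on lines between neighbouring doses. On the log2 scale Hsd17b2 crossed at 18.9 pM TCDD in pool 2 and 571 pM in pool 1, and Cyp1a1 at 0.119 pM in pool 2 and 0.356 pM in pool 1. The log2 midpoint of Cyp1a1, which spans about 9 log2, is only 4.68% of its linear top signal in pool 2 and 4.12% in pool 1, while that of Hsd17b2 is 37.3% in pool 2 and 63.9% in pool 1. On the linear scale, an alternative added after the values were seen, Hsd17b2 crossed at 27.8 pM TCDD in pool 2 and 523 pM in pool 1, and Cyp1a1 at 14.0 pM in pool 2 and 14.95 pM in pool 1.

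Cyp1b1, an AhR target that also hydroxylates estradiol, crossed at 6.12 pM TCDD in pool 2 and 22.1 pM in pool 1 on the log2 scale, but at 81.5 pM in pool 2 and 319 pM in pool 1 on the linear scale. The aldehyde dehydrogenase Aldh3a1 crossed at 9.39 pM in pool 2 and 65.4 pM in pool 1 on the log2 scale, and at 27.0 pM in pool 2 and 981 pM in pool 1 on the linear scale. Hsd17b2 was thus the last of the 4 genes in both pools on the log2 scale, and in neither pool on the linear scale. The AhR targets Nqo1 and Cyp1a2 crossed before Hsd17b2 on both scales in both pools. On the linear scale Nqo1 crossed at 2.48 pM in pool 2 and 8.68 pM in pool 1, and Cyp1a2 at 13.1 pM and 12.9 pM.

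With PCB 126 Hsd17b2 crossed at 0.411 nM in pool 2 and 1.61 nM in pool 1 on the log2 scale, and at 1.32 nM in pool 2 and 2.77 nM in pool 1 on the linear scale. In pool 1 the log2 midpoint was at 0.0155 nM for Cyp1a1, 0.974 nM for Aldh3a1 and 1.06 nM for Cyp1b1, and the linear one at 0.171 nM, 0.748 nM and 0.839 nM. In pool 2 these 3 genes were already past their log2 midpoint at 1 pM, on the array that stood apart. Their linear midpoints in pool 2 were 0.194 nM for Cyp1a1, 1.63 nM for Cyp1b1 and 3.78 nM for Aldh3a1. On the linear scale Hsd17b2 was thus the last of these genes in pool 1, but came before Cyp1b1 and Aldh3a1 in pool 2. Doses of pool 1 were 2 decades apart over most of the range, so a crossing there is only as exact as the line drawn through the gap, and an increase below the dim vehicle level of Hsd17b2 would not be seen.

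**Figure D2:**
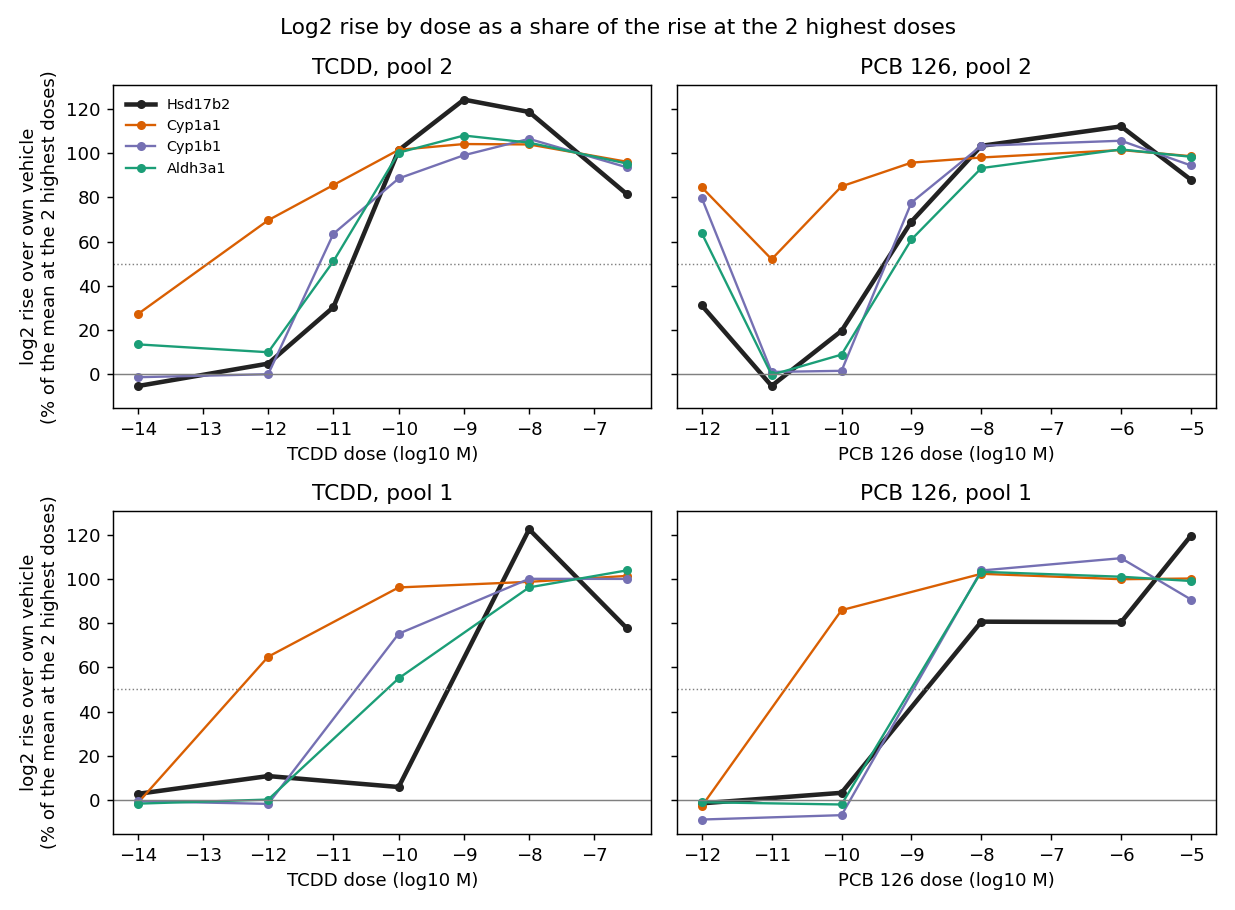
Rise over the pool's own vehicle (log2), as a percentage of the mean rise at the 2 highest doses, against log10 molar dose, for Hsd17b2 (thick black line) and the AhR targets Cyp1a1, Cyp1b1 and Aldh3a1. Columns are TCDD and PCB 126, rows are pool 2 and pool 1, each point is 1 array, and the dotted line is the midpoint at which that dose was read. With TCDD the black line crosses it at 18.9 pM in pool 2 and 571 pM in pool 1, to the right of the other genes. On the linear scale that order held in both pools for Cyp1a1 only.

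TCDD and PCB 126 were compared at the 3 doses given of both in both pools. At 100 pM, Hsd17b2 was 6.21 with TCDD and 4.13 with PCB 126 in pool 2, and 3.47 with TCDD and 3.45 with PCB 126 in pool 1. The difference of the fitted means was 1.05 ± 0.59 log2 (95% interval -0.21 to 2.31, limma adjusted p = 0.349), with the arrays of pool 1 nearly equal. Leaving out the TCDD array of pool 2 gave 0.21 log2, and leaving out that of pool 1 gave 1.90 log2. At 1 pM the difference was -0.35 ± 0.59 log2 (interval -1.61 to 0.91, adjusted p = 0.9753), and at 10 nM it was 0.05 ± 0.59 (interval -1.21 to 1.31, adjusted p = 1.00). Neither sign was stable: it turned at 1 pM with the TCDD array of pool 2 left out (0.25), and at 10 nM with the TCDD array of pool 2 (-0.26) or the PCB 126 array of pool 1 (-0.45) left out. Of all 5199 probe sets tested, limma called 0% at 1 pM (101 probe sets at an unadjusted p below 0.05), 0.0385% at 100 pM (756) and 0% at 10 nM (103).

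At the 2 doses given in pool 2 alone, Hsd17b2 was 4.31 with TCDD and 3.33 with PCB 126 at 10 pM, and 6.83 with TCDD and 5.71 with PCB 126 at 1 nM. The TCDD array was thus the higher one at 10 pM, 100 pM and 1 nM in pool 2, and the 2 were within 0.13 log2 of each other at 10 nM. The slopes on dose of the 2 chemicals differed by -0.06 ± 0.12 log2 per decade, TCDD minus PCB 126 (interval -0.31 to 0.20, limma adjusted p = 0.880). No probe set was called in that comparison by limma (0% of 5199, with 342 at an unadjusted p below 0.05).

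Over all arrays Hsd17b2 was 1.20 ± 0.29 log2 higher in pool 2 than in pool 1 (2.30-fold, limma adjusted p = 0.00072). The pools differed at 79.8% of all probe sets tested, so this is the usual case on these arrays. The vehicle arrays were close, at 3.4998 in pool 2 and 3.39 in pool 1. So were the arrays at 0.01 pM TCDD (3.36 in pool 2, 3.43 in pool 1) and at 1 pM TCDD (3.63 and 3.53). At 10 nM TCDD they were at 6.68 and 4.91. With PCB 126 they were at 4.50 and 3.37 at 1 pM, where the array of pool 2 stood apart, and at 6.80 and 4.69 at 10 nM. The pool term averages over these doses. The slopes of the 2 pools differed by 0.29 ± 0.16 log2 per decade for TCDD (adjusted p = 0.726) and by 0.18 ± 0.16 for PCB 126 (adjusted p = 0.999), pool 2 minus pool 1, and neither passed. These 2 tests called 0% of all probe sets (408 and 97 at an unadjusted p below 0.05).

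Measures of RNA and of other cells also separated the pools. The actin signal at the 3' end minus that at the 5' end lay between 1.24 and 2.19 log2 in pool 2 and between 0.64 and 1.06 in pool 1. Of 7 cholangiocyte markers 2 were kept, and the log2 of their summed signal ran from 6.39 to 7.38 in pool 2 and from 5.28 to 6.23 in pool 1. Their part in the pool difference of either enzyme was not tested.

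A single marker of each of 2 other cell types was called by limma as falling with dose. Lyz2, a lysozyme of macrophages, fell with both chemicals and had 6.43 to 8.11 log2 at the 2 highest TCDD doses and 7.03 to 7.85 at the 2 highest PCB 126 doses, against 8.25 to 8.84 with vehicle. Tagln, a smooth muscle protein listed for stellate cells, fell with PCB 126 and had 8.38 to 10.14 with TCDD and 6.15 to 8.73 with PCB 126, against 10.53 to 11.09 with vehicle. None of the 4 other kept macrophage markers or the 7 other kept stellate markers was called by limma, of 11 and 12 listed. Of all 5199 probe sets limma called 3.1% with TCDD and 4.25% with PCB 126, so 0 among so few markers is near that share. Aif1, Cd74, Col1a1 and Lum among them were dim, with means from 3.61 to 3.74 log2 against the median of 3.71.

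The summed signals of the 2 lists followed these genes. For the stellate list the log2 sum was 9.36 to 10.46 at the 2 highest TCDD doses and 8.27 to 9.63 at the 2 highest PCB 126 doses, against 10.78 to 11.27 with vehicle, but without Tagln it was 8.12 to 8.44 and 7.90 to 8.52, against 8.18 to 8.198. For the macrophage list it was 7.59 to 8.43 with TCDD and 7.87 to 8.27 with PCB 126, against 8.67 to 9.03 with vehicle, but without Lyz2 it was 6.11 to 6.74 and 6.28 to 6.68, against 6.03 to 6.66. Without the called gene both sums thus overlapped the vehicle range. Fewer cells of a type and less RNA per cell cannot be told apart in such cultures, and the part of Lyz2 or Tagln in the Hsd17b2 result was not tested.

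Hsd11b1 showed no such increase, and with TCDD its values were separated by pool, which was not so with PCB 126. With TCDD in pool 2 they were 6.54 at 0.01 pM, 6.88 at 1 pM, 7.08 at 10 pM, 6.66 at 100 pM, 6.24 at 1 nM, 5.98 at 10 nM and 6.58 at 316 nM, against 6.88 with vehicle. In pool 1 they were 5.28 at 0.01 pM, 5.38 at 1 pM, 4.69 at 100 pM, 5.08 at 10 nM and 5.74 at 316 nM, against 5.47 with vehicle. Every TCDD array of pool 2 lay above every TCDD array of pool 1, and within a pool the values spanned 1.10 log2 in pool 2 and 1.05 log2 in pool 1. The pools differed at 79.8% of all probe sets tested, so a separation by pool does not single out Hsd11b1. How many probe sets separate without overlap was not counted.

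With PCB 126 the Hsd11b1 values in pool 2 were 6.44 at 1 pM, 6.58 at 10 pM, 6.77 at 100 pM, 6.24 at 1 nM, 6.61 at 10 nM, 6.52 at 1000 nM and 5.73 at 10000 nM. In pool 1 they were 6.68 at 1 pM, 6.98 at 100 pM, 5.60 at 10 nM, 6.38 at 1000 nM and 5.48 at 10000 nM. The lowest value of each pool was that at the highest dose. In pool 2 all 7 PCB 126 arrays lay below the vehicle array of that pool, and in pool 1 all 5 lay above theirs. The comparison of exposed minus own vehicle between the pools called 0.0962% of probe sets with PCB 126 and 0.0769% with TCDD, and Hsd11b1 was not among them.

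**Figure D3:**
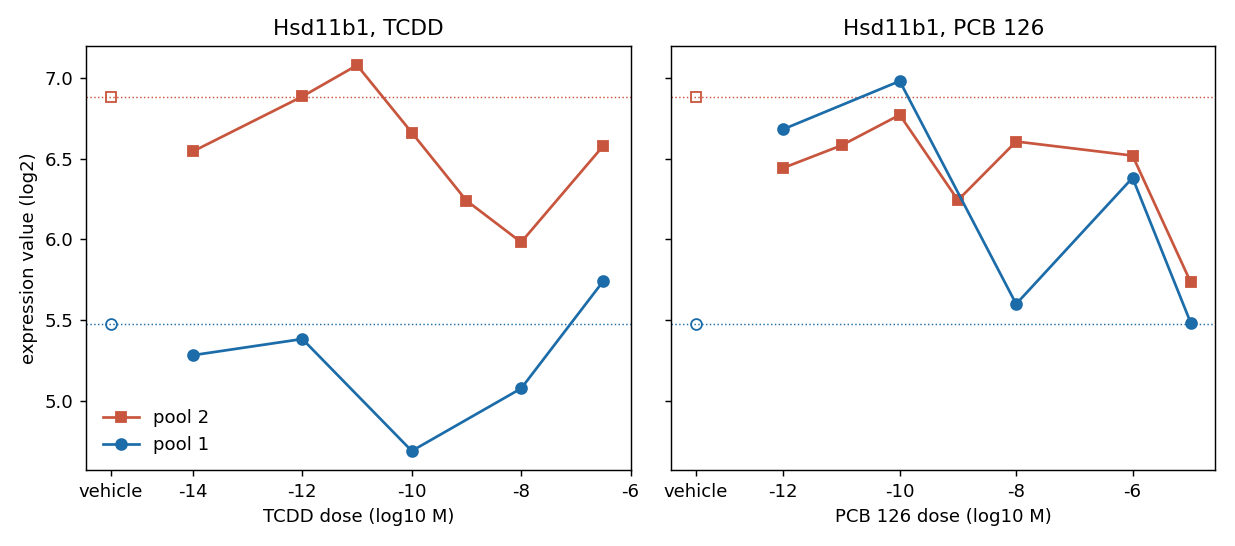
Log2 expression value of Hsd11b1 on each array against the log10 molar dose of TCDD (left) and PCB 126 (right). Squares are pool 2 and circles pool 1, and open symbols at the far left and dotted lines mark each pool's vehicle array (6.88 in pool 2 and 5.47 in pool 1). The TCDD arrays of the pools do not overlap, while the PCB 126 arrays of pool 1 range from 5.48 to 6.98 and overlap those of pool 2.

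The slope of Hsd11b1 was -0.02 ± 0.06 log2 per decade of TCDD dose and -0.10 ± 0.06 log2 per decade of PCB 126 dose. Without the 10000 nM arrays the PCB 126 slope was -0.04 ± 0.07. The mean of the 2 highest doses minus vehicle was -0.33 ± 0.40 log2 for TCDD and -0.15 ± 0.40 log2 for PCB 126, both smaller than their standard error. Leaving out the vehicle array of pool 1 gave -0.67 with TCDD and -0.48 with PCB 126, and leaving out that of pool 2 gave -0.0024 with TCDD and 0.18 with PCB 126. Ordered by adjusted level, the 15 conditions spanned 1.35 log2, from 6.88 with 100 pM PCB 126 to 5.53 with 10 nM TCDD, and the largest gap between neighbours was 0.27 log2. None of the 14 gaps exceeded 2 standard errors.

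Hsd11b1 was 0.79 ± 0.19 log2 higher in pool 2 than in pool 1 (1.73-fold, limma adjusted p = 0.00057), in a comparison that called 79.8% of probe sets. It came from the vehicle arrays (6.88 in pool 2 and 5.47 in pool 1) and the TCDD arrays (means of 6.57 in pool 2 and 5.23 in pool 1). The PCB 126 arrays averaged 6.41 in pool 2 and 6.22 in pool 1, and pool 2 was the lower of the pools at 1 pM and at 100 pM.

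The chemicals differed most for Hsd11b1 at 100 pM, where it was 6.66 with TCDD and 6.77 with PCB 126 in pool 2, and 4.69 with TCDD and 6.98 with PCB 126 in pool 1. The difference was -1.20 ± 0.46 log2, TCDD minus PCB 126 (95% interval -2.18 to -0.22, unadjusted p = 0.0193, limma adjusted p = 0.332), and it did not pass. Without the TCDD array of pool 2 it was -1.84 log2 and passed (adjusted p = 0.0275), and without that of pool 1 it was -0.56 log2. The differences at 1 pM and at 10 nM were -0.43 ± 0.46 (interval -1.41 to 0.55, adjusted p = 0.970) and -0.57 ± 0.46 (interval -1.55 to 0.40, adjusted p = 1.00). The slopes of the chemicals differed by 0.08 ± 0.08 log2 per decade (interval -0.08 to 0.24, adjusted p = 0.713).

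The other genes of steroid metabolism on the array were taken from 5 lists of enzymes, hormone receptors and carriers. Of 79 listed genes besides the 3 enzymes, 43 were tested, 16 were below the filter and 20 had no probe set of their own. With TCDD dose 3 rose and 6 fell (20.9% called), and with PCB 126 dose 4 rose and 3 fell (16.3%), by limma with adjusted p below 0.05. Over all 5199 probe sets 3.1% were called with TCDD (1.63% rising, 1.46% falling) and 4.25% with PCB 126 (1.56% rising, 2.69% falling). The lists were chosen with earlier results of these data known, so their higher share is a description and no evidence about steroid genes. A list gene also counts once, by its brightest kept probe set, while the share over the array counts probe sets. The median slope of the 43 was -0.01 log2 per decade for TCDD and 0.01 for PCB 126, and that of all probe sets -0.01 and 0.01. Leaving out pool 2 at 0.01 pM or pool 1 at 316 nM lowered the TCDD count to 5, and leaving out pool 1 at 1 pM lowered the PCB 126 count to 4. Without the array that stood apart they were 8 and 7.

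Among the hydroxysteroid dehydrogenases themselves, the family of the members, 10 of 22 other listed genes were tested and limma called 0 with either chemical (1 with TCDD and 2 with PCB 126 at an unadjusted p below 0.05). With 3.1% and 4.25% called among all 5199 probe sets, 0 of 10 is near the usual share and does not set the family apart. Hsd17b4, a peroxisomal enzyme of fatty acid oxidation that also oxidizes estradiol, had a slope of -0.01 ± 0.02 log2 per decade with TCDD and -0.04 ± 0.02 with PCB 126. Hsd17b12, an enzyme of fatty acid elongation, had -0.03 ± 0.03 and -0.06 ± 0.03. Akr1c14, the major dihydrodiol and hydroxysteroid dehydrogenase of rat liver cytosol, had 0.00 ± 0.03 and 0.01 ± 0.03. Hsd17b13, a lipid droplet protein named after its values were seen, had 0.09 ± 0.06 and 0.13 ± 0.06 (limma adjusted p = 0.477 and 0.245), the slopes of largest size among the 10 and of the same sign as those of Hsd17b2. Hsd17b1 and Hsd17b3, which work in the opposite direction to Hsd17b2 and make estradiol and testosterone, were below the filter, as was Hsd11b2, which inactivates glucocorticoids.

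Among ring reductases and the proteins that feed electrons to steroid-metabolizing enzymes, 5 of 8 genes were tested. Akr1d1, which reduces the ring of steroid hormones and bile acid precursors, fell by 0.18 ± 0.05 log2 per decade of TCDD dose (limma adjusted p = 0.0258) and had -0.10 ± 0.05 with PCB 126 (adjusted p = 0.268). Its TCDD call was lost in 10 of 36 alternatives. Por, the reductase that serves all microsomal P450s, had 0.10 ± 0.04 with each chemical and did not pass.

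The steroid-hydroxylating P450s held most of the calls. Of 12 tested of 21 listed, 3 rose and 2 fell with TCDD, and 4 rose and 2 fell with PCB 126. Cyp1b1, Cyp2a1 (a testosterone hydroxylase) and Cyp2a2 rose with both chemicals, though of 36 alternatives 6 lost the Cyp1b1 call with PCB 126 and 4 the Cyp2a2 call with TCDD. Cyp2a1 gained 0.72 ± 0.12 log2 per decade of TCDD dose and 0.67 ± 0.12 of PCB 126 dose, and Cyp2a2 gained 0.23 ± 0.05 and 0.27 ± 0.06. Cyp3a23-3a1, which hydroxylates testosterone and is induced through the pregnane X receptor, rose with PCB 126 by 0.58 ± 0.09 (limma adjusted p = 0.00207) and had 0.31 ± 0.09 with TCDD (adjusted p = 0.0614). Cyp2c7 and the female-predominant Cyp2c12, which hydroxylates steroid sulfates, fell with both. Cyp2c12 fell by 0.53 ± 0.10 with TCDD and by 0.39 ± 0.10 with PCB 126, though the PCB 126 call was lost in 10 of 36 alternatives.

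Among conjugating enzymes 9 of 13 were tested. With TCDD 3 fell and 0 rose, and with PCB 126 1 fell and 0 rose. Ugt2b, of the glucuronosyltransferases that make steroids soluble for excretion, fell by 0.28 ± 0.06 with each chemical. Its call was lost in 3 of 36 alternatives with TCDD and in 4 of 36 with PCB 126. Ugt2b35 fell by 0.16 ± 0.04 and Ugt2b1 fell by 0.08 ± 0.02 with TCDD, but these calls were lost in 20 and 26 of 36 alternatives. All these slopes run over exposed arrays and do not measure a fall from vehicle. At 1 pM TCDD Ugt2b1 was 0.60 log2 above its vehicle in pool 2 and 0.48 in pool 1, and Ugt2b35 0.41 and 0.60. At the 2 highest TCDD doses Ugt2b1 stood -0.10 log2 from vehicle, Ugt2b35 -0.53 and Ugt2b -1.81. At the 2 highest PCB 126 doses Ugt2b stood -1.87 log2 from vehicle. The hydroxysteroid sulfotransferases Sult2a1, Sult2a2 and Sult2a6 did not pass, with TCDD slopes of -0.06, -0.13 and -0.04, and their probe sets can share sequence between these related genes. The same can hold for the related P450s and glucuronosyltransferases called above, and it was not tested. Of 15 receptors and carriers 7 were tested and limma called 0 (1 with TCDD and 0 with PCB 126 at an unadjusted p below 0.05). That is near the share over all probe sets, 3.1% with TCDD and 4.25% with PCB 126. The heat shock protein Hsp90ab1, part of the complex that holds steroid receptors ready for hormone, had -0.04 ± 0.02 with TCDD and 0.01 ± 0.02 with PCB 126.

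**Figure D4:**
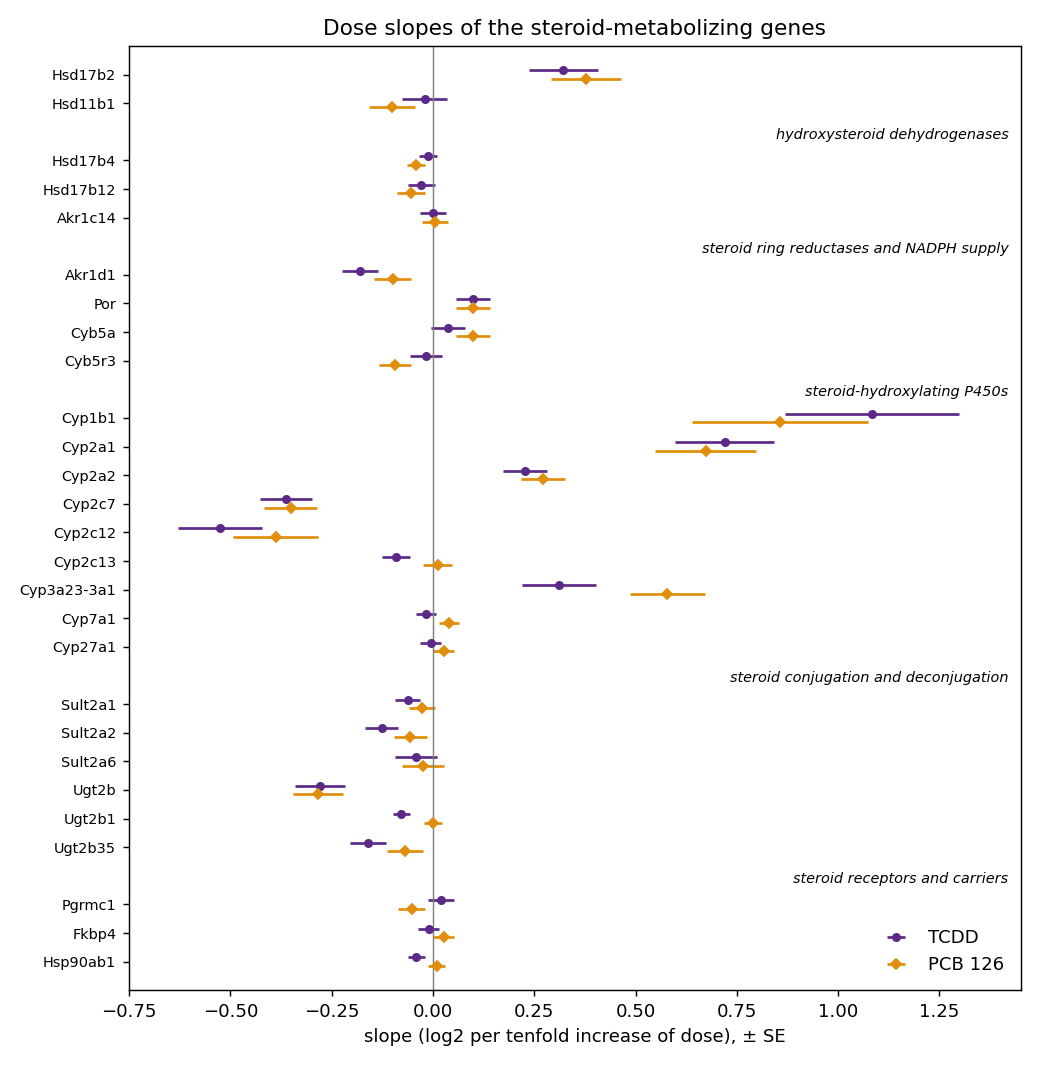
Slope of log2 expression per decade of dose, with its standard error, for Hsd17b2, Hsd11b1 and the named genes of the 5 steroid lists (circles TCDD, diamonds PCB 126, 12 arrays each). Hsd17b2 lies at 0.32 and 0.38 and Hsd11b1 at -0.02 and -0.10, while the 3 other hydroxysteroid dehydrogenases drawn, those of highest mean signal among the 10 tested, lie between -0.06 and 0.01.

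Hsd11b1 controls the supply of active glucocorticoid, so glucocorticoid-responsive genes were listed beside it. Of 16 genes 10 were tested, 1 rose and 1 fell with TCDD (20% called), and 2 rose and 1 fell with PCB 126 (30%). Over all 5199 probe sets limma called 3.1% with TCDD and 4.25% with PCB 126. This list too was chosen with earlier results of these data known, so the shares are only described. The insulin-like growth factor binding protein Igfbp1 rose by 0.28 ± 0.05 log2 per decade with TCDD and by 0.35 ± 0.06 with PCB 126, and Tat, the tyrosine aminotransferase, rose with PCB 126 by 0.20 ± 0.04. Cps1, the first enzyme of the urea cycle, fell by 0.21 ± 0.05 with TCDD, a call lost in 7 of 36 alternatives. The phosphatase Dusp1 fell by 0.15 ± 0.04 with PCB 126, a call lost in 16 of 36. The other 8 with TCDD and 7 with PCB 126 did not pass, and the median slopes were 0.01 with TCDD and 0.00 with PCB 126.

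The genes whose values were most like those of Hsd17b2 were found by Pearson's r over the 26 arrays, after the mean of its pool was subtracted from each value, among 3033 other genes. They were Slc17a1, a transporter of phosphate and organic anions (r = 0.91), Hal, which starts histidine breakdown (r = 0.91), Cyp2a2 (r = 0.89), Aldh3a1 (r = 0.88), Ceacam4 (r = 0.87) and Cyp1b1 (r = 0.86). Within single pools r for Slc17a1 was 0.95 in pool 2 and 0.84 in pool 1, and for Hal 0.95 in pool 2 and 0.94 in pool 1. In the same order it was 0.95 and 0.72 for Cyp2a2, 0.96 and 0.91 for Aldh3a1, 0.91 and 0.65 for Ceacam4, and 0.92 and 0.83 for Cyp1b1. Ceacam4 was dim, with a mean of 3.22 log2 against the median of 3.71. Without the array that stood apart, r for these genes ran from 0.87 to 0.91 over both pools. Cyp1a1 ranked only 67th, with r = 0.66. The 2 genes most opposed were Amy2a3, an amylase (r = -0.90), and Lox, the collagen cross-linking lysyl oxidase (r = -0.88). These points share the dose series and the arrays, and r only describes likeness.

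Hsd11b1 and Hsd17b2 had r = -0.32 with each other. The genes most like Hsd11b1 were Ndufaf3, an assembly factor of mitochondrial complex I (r = 0.82), Eloc, the elongin C subunit (r = 0.82), Dbi, the acyl-CoA binding protein (r = 0.80), and the phosphatase Ptp4a1 (r = 0.80), and none of the AhR targets followed here was among them.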

How the data were processed

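The log2 expression values of the 26 arrays were deposited by the authors, 1 column per array. Per the submitters' processing notes, GCRMA 2.8.0 and RMA were the tools; how they were set is not stated there. Of 8799 probe sets, 59 controls were left out and 5199 passed the filter. Symbols came from a platform table (7006 probe sets with 1 gene, 308 with several, 1426 unlisted) and were brought up to date through Entrez identifiers. A gene is represented by its kept probe set of highest mean (3034 genes). No genome was used.

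All kept probe sets were fitted with limma (version 3.58.1, under R 4.3.3), using moderated variances with a trend and robust estimation, with Benjamini-Hochberg adjustment over 5199 and a threshold of 0.05. The trend model had terms for pool, for chemical and, per chemical, for log10 dose (20 residual degrees of freedom). The second held pool and 15 groups (10). Where a group has 1 array, its spread is borrowed from the other groups. The models were tested on simulated data. Pool is a block because the labels place same-numbered arrays in the same animals' cells. Between the 11 groups with both pools, the correlation of pool deviations ran from 0.461 to 0.892. Named genes are the members, the called genes of each list, up to 3 uncalled ones of highest mean, and those most like a member. Members and lists were chosen with earlier results of these data known.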

Additional observations from a re-analysis of the deposited data

Results flagged for a closer look

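Hsd11b1 moved in opposite directions from its own vehicle in the 2 pools with PCB 126. All 7 arrays of pool 2 were lower than the vehicle array, by 0.11 to 1.15 log2 (mean -0.47), and all 5 arrays of pool 1 were higher, by 0.01 to 1.51 log2 (mean 0.75). The fitted difference was -1.28 ± 0.59 log2, pool 2 minus pool 1 (unadjusted p = 0.0397, limma adjusted p = 0.721), and it did not pass. That comparison called 0.0962% of probe sets. It was added after the values were seen, and it rests on 1 vehicle array in each pool. With TCDD the fitted difference was -0.07 ± 0.59 log2 (adjusted p = 1.00), with 2 of 7 arrays above vehicle in pool 2 and 1 of 5 in pool 1.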

How the results depend on the processing

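The alternatives were no pool term, arrays centred on their medians, no filter or a stricter one, plain eBayes, each array left out in turn, the mean of all kept probe sets of a gene in place of the brightest for the lists, and, for slopes, vehicle placed 1 decade below the lowest dose, only the arrays of the chemical, only doses with both pools and no highest dose. A choice of probe set for the members was not possible, since each has 1. Without the replicate block (the pool), 3 steroid-list genes were called with TCDD and 4 with PCB 126, against 9 and 7 with it. The TCDD count was 5 with only TCDD arrays and 6 with the mean of a gene's probe sets, and the PCB 126 count was 11 with vehicle placed below the lowest dose and 4 without the highest dose. Leaving out 1 array gave 5 to 9 and 4 to 7. The Hsd17b2 slope stayed positive in every alternative, from 0.28 to 0.47 with TCDD and from 0.33 to 0.45 with PCB 126. The Hsd11b1 slope moved to -0.077 with TCDD without the highest dose, and with PCB 126 to -0.040 without it and to -0.036 with vehicle placed below. With 1 array left out, the rise of Hsd17b2 at the 2 highest doses ran from 1.35 to 2.56 log2 with TCDD and from 1.80 to 3.01 with PCB 126. Differences between the chemicals that no setting called changed sign when 1 array was left out: for Hsd17b2 the slopes (-0.10 to 0.0014) and the differences at 1 pM (-0.96 to 0.25) and at 10 nM (-0.45 to 0.54), and for Hsd11b1 the difference at 1 pM (-1.003 to 0.15) and the pool difference of the PCB 126 slope (-0.061 to 0.14). At 100 pM the difference ran from 0.21 to 1.90 for Hsd17b2 and from -1.84 to -0.56 for Hsd11b1. The cause of these changes was not tested. Adjusted p for the pool difference stayed below 0.05 in all alternatives with a pool term, at most 0.00485 for Hsd17b2 and 0.00908 for Hsd11b1. Centring moved the median pool difference over all probe sets from 0.02 to -0.22 log2, with 0.96 log2 or more for Hsd17b2 and 0.55 or more for Hsd11b1 in any alternative. With 1 or 2 arrays per dose, differences of 1 log2 at a single dose could not be resolved, and the dim vehicle level of Hsd17b2 limits how early its rise can be seen.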
